A study of Mus musculus with 2 samples.

Results

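Resident cardiac macrophages were the 662 barcodes, of 11078 kept cells, that held transcripts of C1q together with those of the resident markers Timd4, Lyve1, Folr2, and Cd163. Kept barcodes held over 500 genes, below 6000 genes, and a mitochondrial share below 25% of their unique molecular identifiers (UMIs, each counting 1 RNA molecule). A resident macrophage had at least 10 UMIs of C1qa, C1qb, and C1qc together, at least 3 UMIs of the resident markers together, at most 1 UMI of Ccr2, and fewer than 5 UMIs of Arg1. Barcodes with more than 2 UMIs of the B cell genes Cd79a, Cd79b, and Ms4a1, more than 1 UMI of Cd3d and Cd3e, or 1% or more of their UMIs from S100a8 and S100a9 were left out. By this rule, 493 resident macrophages came from the control library and 169 from the isoproterenol (ISO) library.

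The study modelled Takotsubo syndrome (TTS), an acute stress cardiomyopathy, in wild-type female C57BL6 mice (C57BL/6J in the methods) given ISO, a beta-adrenergic agonist. The ISO library, titled TTS, came from mice injected intraperitoneally with 200 mg/kg ISO, and the control library came from mice given vehicle. Hearts were taken 24 hours later, and live CD45+ cells were sorted from collagenase digests and put through droplet single-cell RNA-Seq. Each library pooled the cells of 3 mice and started from 15000 cells, so each group is 1 library without replicates, and the cells of a library are not replicates of a treatment. The labels state the ISO dose for both libraries, so its title and the methods served to identify the control, and no age is stated in the labels. No test between the groups was possible. All intervals below are 95% intervals that cover counting error only, and a difference between the libraries includes any difference between the pools of mice.

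Resident macrophages of the heart are seeded before birth or early in life and largely maintain themselves by local division, whereas Ccr2+ macrophages are replenished from blood monocytes. Timd4 (TIM4) binds phosphatidylserine on dying cells, Lyve1 is a hyaluronan receptor, Folr2 is a folate receptor, and Cd163 takes up hemoglobin bound to haptoglobin. In the healthy heart these cells clear debris, exchange material with cardiomyocytes, and present antigen through major histocompatibility complex (MHC) class II to a varying degree.

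Depth was alike in the 2 groups of resident macrophages. Control resident macrophages had a median of 6815 UMIs and 2388 genes, and those of the ISO library 6365 UMIs and 2409 genes. Over all kept cells the medians stood apart, at 4790 UMIs (control) and 8537 UMIs (ISO). The median mitochondrial share was 4.10% in control and 2.57% in ISO resident macrophages. Summed, the resident macrophages held 3848630 control and 1220356 ISO UMIs, and levels are given as UMIs per 1000000 UMIs of these sums (CPM). The libraries had 15 barcode sequences in common, of which 2 belonged to a resident macrophage of either library and 0 to resident macrophages of both.

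Genes outside the rule also stood higher in these cells than in other macrophages. In all, 4 sets of C1q barcodes were compared in each library: the resident macrophages, Ccr2-low macrophages with fewer than 3 resident UMIs, Ccr2 macrophages with 2 or more Ccr2 UMIs, and Arg1 macrophages with 5 or more Arg1 UMIs at any Ccr2 level. The 10 genes that stood highest in resident macrophages over the pooled other sets were Ltc4s, Cbr2, F13a1, Gas6, Prune2, Fxyd2, Pf4, Wfdc17, Igfbp4, and Stard8. All 10 were more than 2-fold higher in both libraries. The genes were ranked by the lower of the ratios in the 2 libraries, and the cells were chosen by transcripts of the same barcodes. This is therefore a description and no check of the label.

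Cbr2, a carbonyl reductase, stood at 725 CPM in control resident macrophages and 207 CPM in the other sets, and at 501 CPM and 58.6 CPM in the ISO library. Gas6, a ligand that bridges dying cells to the Axl and Mertk receptors, stood at 468 CPM against 161 CPM in the control and at 248 CPM against 31.3 CPM in the ISO library. Neither marker differed by 2-fold between control and ISO resident macrophages, and both stood further above the other macrophages in the ISO library. The pooled other sets differed in make-up, with 364 Ccr2-low, 273 Ccr2, and 12 Arg1 cells in the control. In the ISO library these were 124, 645, and 409, and the part of this mix in the wider gap was not tested. The log2 ratios of ISO over control in resident macrophages were -0.53 for Cbr2 and -0.91 for Gas6. These were -0.70 and -1.08, past 2-fold for Gas6, with scaling by the median ratio, and 1.31 and 0.95 when the UMIs of lymphocyte barcodes were subtracted. After thinning to 2000 UMIs per cell, 68.8% of control and 53.3% of ISO resident macrophages had a Cbr2 UMI. In lymphocyte barcodes with few myeloid UMIs (at most 5 of Lyz2, Csf1r, and Cd14, with median depths of 3770 and 3658 UMIs), which should lack Cbr2, the shares were 0.808% of 1608 and 0 of 90, which allows up to 4.02%. Ltc4s, the synthase of leukotriene C4, was at 259 CPM in control and 194 CPM in ISO resident macrophages. F13a1, a subunit of the clotting factor XIII, was at 1412 CPM and 2004 CPM, and Pf4, a platelet chemokine that resident macrophages also express, was at 3629 CPM and 5449 CPM. Wfdc17, a small secreted protein, was at 842 CPM in control and 1685 CPM in ISO resident macrophages, at the 2-fold limit and below it, with a log2 ratio of 0.83, when scaled by the median ratio. Igfbp4, which binds insulin-like growth factors, was lower after ISO, at 296 CPM and 140 CPM.

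**Figure D1:**
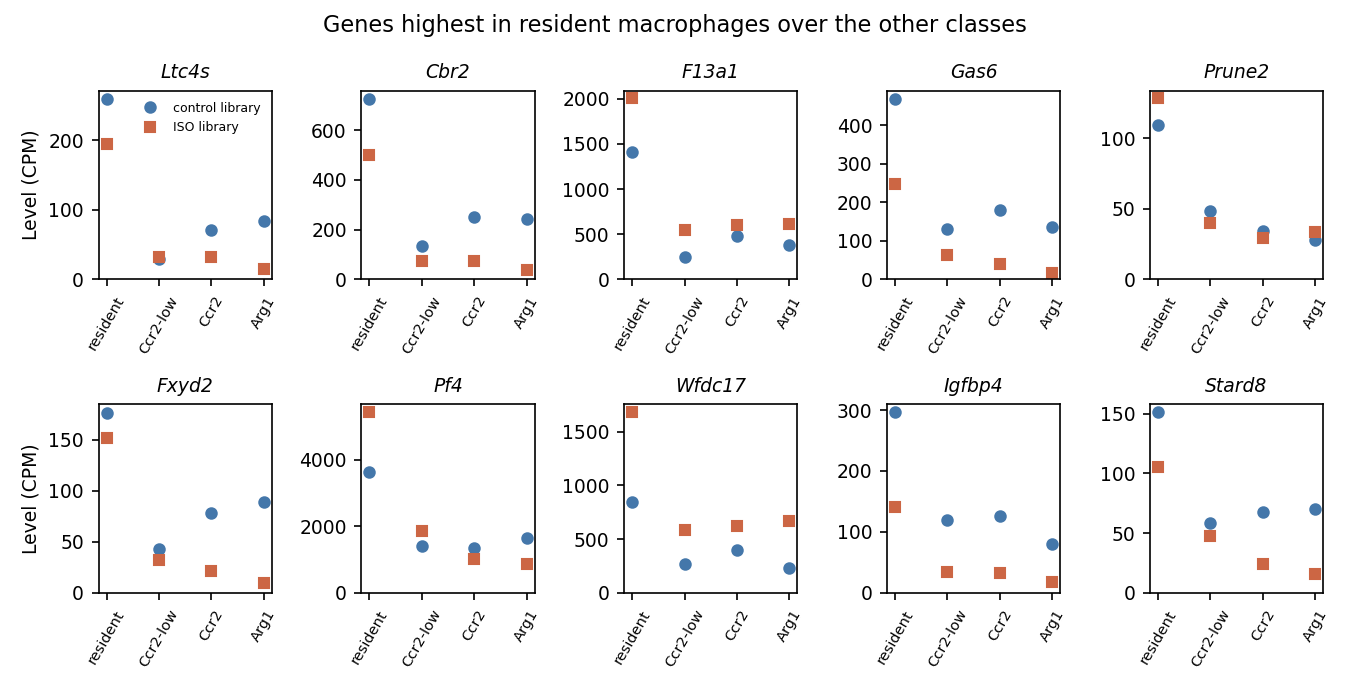
Level in CPM of the 10 genes highest in resident macrophages over the other macrophages, in the 4 sets of C1q barcodes (horizontal axis) of the control library (blue circles) and the ISO library (orange squares), 1 point per set and library and no error bars. In each panel the resident macrophages lie above the other 3 sets of their library, for example Cbr2 at 725 CPM (control) and 501 CPM (ISO).

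Resident macrophages made up a smaller share of the ISO library. They were 493 of 5641 kept control cells, or 8.74% (8.02 to 9.51), and 169 of 5437 kept ISO cells, or 3.11% (2.66 to 3.60). The share was 2.81-fold lower after ISO (log2 ratio -1.49, -1.74 to -1.25). Among all C1q barcodes they went from 43.2% (40.3 to 46.1) of 1142 to 12.5% (10.8 to 14.4) of 1347, which is 3.44-fold lower. Ccr2-low macrophages with fewer than 3 resident UMIs went from 31.9% to 9.21%, 3.46-fold lower. Over the same C1q barcodes, Ccr2 macrophages stood at 23.9% and 47.9%, and Arg1 macrophages at 1.05% and 30.4%. With a set number of cells loaded per library, a share also falls when other cells are more numerous, and the 2 cannot be told apart here.

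The limits of the rule did not act evenly. In the control, 213 barcodes met every limit but that on B cell UMIs, 119 failed only on Ccr2, and 88 failed only on T cell UMIs. In the ISO library these numbers were 13, 136, and 6. The Arg1 limit alone removed 1 control and 2 ISO barcodes. When the limits were applied to cells thinned to 4000 UMIs, the share of kept cells had a log2 ratio of -2.26 and that of C1q barcodes one of -1.22.

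**Figure D2:**
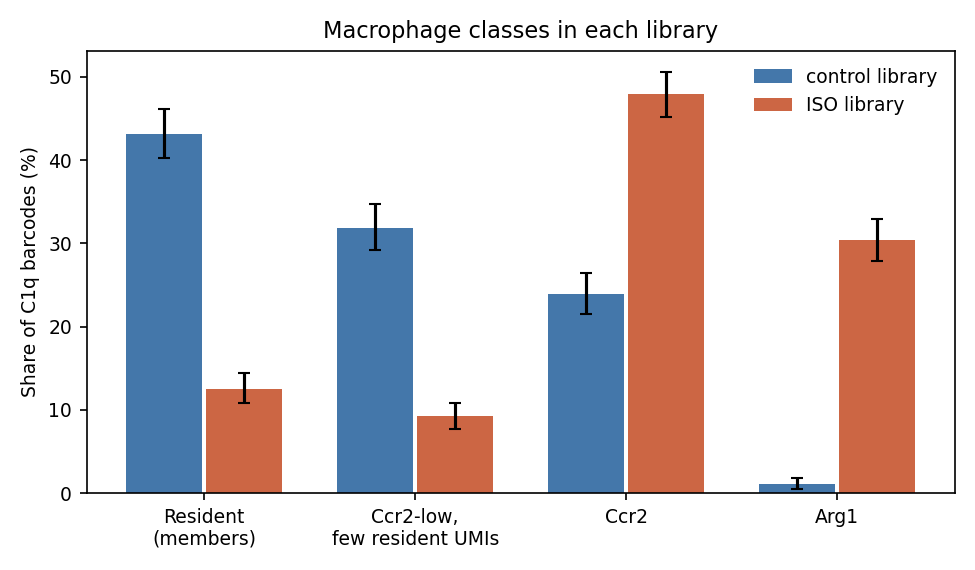
Share of C1q barcodes in percent (vertical axis) taken by each of the 4 sets of macrophages in the control library (blue bars) and the ISO library (orange bars), with exact 95% binomial intervals. The resident set takes 43.2% of the control bar total and 12.5% of the ISO total, while the Ccr2 and Arg1 sets take more of the ISO library.

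The remaining ISO resident macrophages carried a different mix of the 4 resident markers. These genes set the rule, so their values are a description. A Timd4 UMI was present in 245 of 493 control cells (49.7%, 45.2 to 54.2) and in 53 of 169 ISO cells (31.4%, 24.5 to 38.9). A Lyve1 UMI was present in 66.1% of control and 79.9% of ISO cells. For Folr2 the shares were 84.6% and 87.6%, and for Cd163 86.2% and 84.0%. Cells with Lyve1 but no Timd4 UMI were 25.6% (21.8 to 29.6) of control and 50.9% (43.1 to 58.6) of ISO resident macrophages, and cells with both were 40.6% and 29.0%.

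Each marker was also measured in cells chosen without it, by at least 3 UMIs of the other 3 genes. Timd4 was then at 120 CPM in 479 control cells and 81.4 CPM in 168 ISO cells (log2 ratio -0.55, -0.87 to -0.24). Folr2 was at 724 CPM and 517 CPM (-0.49), Lyve1 at 562 CPM and 746 CPM (0.41), and Cd163 at 628 CPM and 868 CPM (0.47). None of the 4 differed by 2-fold. The sum of the 4 markers per cell was alike, with medians of 10 UMIs (control) and 12 UMIs (ISO), as was C1q, with medians of 99 UMIs and 97 UMIs. C1qa, a subunit of the complement starter C1q, was at 5522 CPM in control and 5852 CPM in ISO resident macrophages.

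Across the 10077 genes outside the rule with at least 20 UMIs, 703 were at least 2-fold higher in ISO resident macrophages (6.98% of the genes) and 760 were at least 2-fold lower (7.54%). The median log2 ratio was 0.03, and from the 5th to the 95th percentile the ratios ran from -1.22 to 1.14. Scaling by the median ratio of well-counted genes lowered every log2 ratio by 0.17 and gave 469 higher and 1080 lower genes. A noncoding transcript, Gm26924, took 53812 CPM of the control and 19394 CPM of the ISO resident macrophages. It may include reads of ribosomal RNA, which was not tested, and without it in the totals 615 genes were higher and 851 were lower. In the Ccr2 macrophages, 7.76% of 11260 genes were 2-fold higher after ISO and 15.7% were 2-fold lower.

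**Figure D3:**
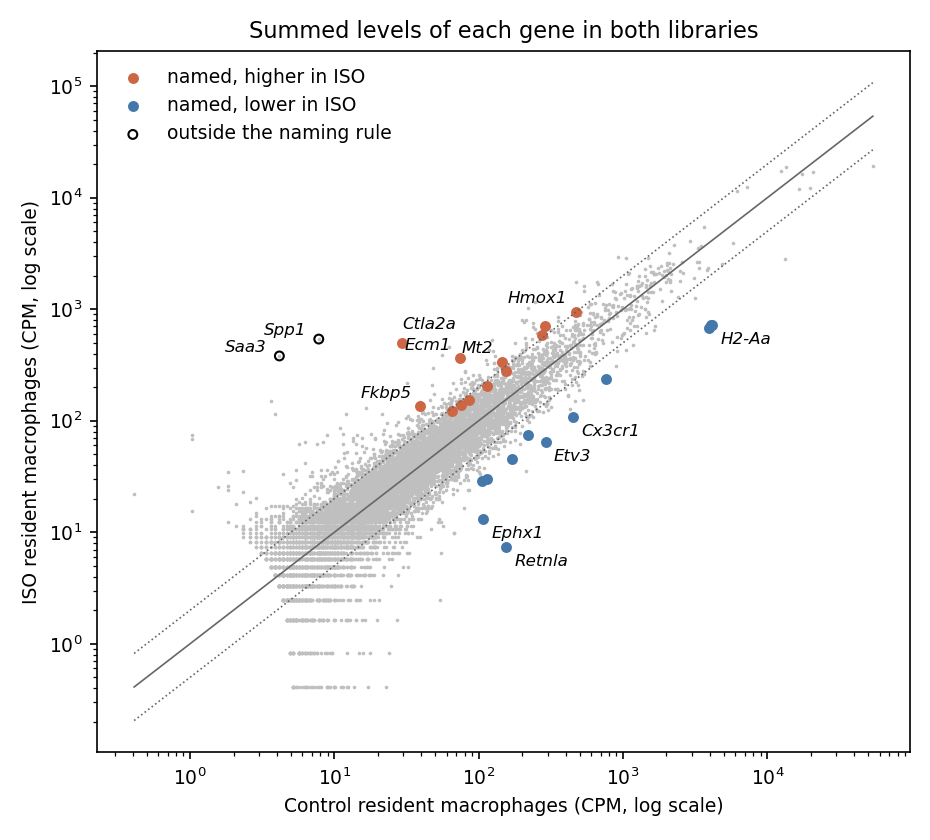
Summed level of each of 10077 genes in control (horizontal) and ISO (vertical) resident macrophages, in CPM on log scales, 1 point per gene, with lines at equal levels (solid) and at 2-fold differences (dotted). Orange and blue points are the genes named as higher and lower, among them H2-Aa at 4134 CPM and 716 CPM, and open circles are Saa3 and Spp1, which were not 2-fold above the lymphocyte and neutrophil barcodes. Values of 0 are drawn at 0.5 UMI.

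Most of the higher genes were also abundant in other barcodes. Of 156 genes that were 2-fold higher and reached 100 CPM and 50 UMIs in ISO resident macrophages, 7 stood at least 2-fold above the lymphocyte and neutrophil barcodes of the same library, and 149 did not. The ISO lymphocyte barcodes held 13 genes shared by macrophages at 14515 CPM, against 1679 CPM in the control. ISO lymphocyte barcodes with few myeloid UMIs held them at 1502 CPM. The limit was thus harder to pass in the ISO library, and the 149 may include genes of resident macrophages, which was not tested.

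Ecm1, an extracellular matrix glycoprotein, stood at 74.1 CPM (65.7 to 83.2) in control resident macrophages and at 362 CPM (329 to 398) after ISO, 4.89-fold higher. The gene lies on the minus strand at chr3:95734147-95739569 (GRCm38). An Ecm1 UMI was found in 31.8% of control and 71.6% of ISO cells. After thinning the shares were 10.5% and 45.0%, against 0.622% and 1.11% of the lymphocyte barcodes with few myeloid UMIs. Fkbp5, a glucocorticoid-induced chaperone of steroid receptors, was at 39.2 CPM and 136 CPM (3.47-fold), and after thinning 10.1% and 27.8% of cells had a UMI, against 5.04% and 14.4% of those lymphocyte barcodes. Ms4a6b, a membrane protein of the MS4A family, was at 286 CPM and 713 CPM (2.49-fold). Mt2, a metallothionein that binds zinc and copper, was at 144 CPM and 338 CPM (2.34-fold). The remaining genes, besides Ctla2a, were close to the 2-fold limit and fell under it with median scaling: the sorting nexin Snx2, at 276 CPM and 589 CPM (2.14-fold), and Hmox1, the heme-degrading oxygenase, at 470 CPM and 953 CPM (2.03-fold).

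Hmox1 was uneven among cells. In the ISO library 10 of 169 resident macrophages held 54.7% of its UMIs, and in the control 10 of 493 held 32.0%. Ctla2a, an inhibitor of cysteine proteases, had the largest ratio by this rule, at 29.6 CPM in control and 497 CPM in ISO resident macrophages (16.7-fold). Here 10 ISO cells held 70.8% of the UMIs, with 148 UMIs in 1 of them. After thinning to 2000 UMIs, a Ctla2a UMI was present in 3.93% of control and 25.4% of ISO resident macrophages. Over the lymphocyte barcodes with few myeloid UMIs the shares were 11.9% and 34.4%, above those of the resident macrophages in both libraries, and the ISO level there was 514 CPM. Ctla2a lies at chr13:60934155-60936625 on the minus strand (GRCm38). Its reads may be split with the closely similar gene Ctla2b, so its level is uncertain.

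Below 2-fold, the next genes by the same rule were Hgsnat, a lysosomal acetyltransferase, at 65.2 CPM in control and 122 CPM in ISO cells, and Blvra, the biliverdin reductase that acts after Hmox1, at 75.1 CPM and 139 CPM. Tmem37 was at 113 CPM and 204 CPM, Snx6 at 155 CPM and 279 CPM, and Colec12, a scavenger receptor of the collectin family, at 85.7 CPM and 153 CPM. In the other sets of control macrophages Colec12 was at 17.6 CPM.

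Several genes with very large ratios were left out by the naming limit, since they were not 2-fold above lymphocyte and neutrophil barcodes of the ISO library. Spp1 (osteopontin) was at 7.79 CPM in control and 540 CPM in ISO resident macrophages. After thinning, 23.1% of ISO resident macrophages had an Spp1 UMI (17.0 to 30.2), against 22.2% of ISO lymphocyte barcodes with few myeloid UMIs, so the share was at the background level. The UMIs were not spread evenly, since 10 ISO resident macrophages held 85.6% of them, with 240 UMIs in 1 cell. Saa3, an acute-phase protein, was at 4.16 CPM and 381 CPM. It was found in 12 of 169 ISO cells, with up to 202 UMIs in a cell, and 10 of them held 99.6% of the UMIs. ISO neutrophil barcodes held Saa3 at 533 CPM, while it was found in 0 of the 90 ISO lymphocyte barcodes with few myeloid UMIs, which allows up to 4.02%. In the Ccr2 macrophages both genes had larger ratios, with log2 values of 7.98 for Spp1 and 8.51 for Saa3. Chi3l3, Fn1, and Cxcl3 were left out in the same way, with log2 ratios of 5.33, 4.85, and 3.26. The same limit left out genes that are named below from the lists. Among these were Hilpda, Thbs1, Lgals3, Pkm, Ctsl, Il1rn, Msr1, Ccl6, and Plin2.

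The MHC class II genes were the group with the lowest median among the 30 pathway lists. Of its 8 genes 7 were at least 2-fold lower and 0 were higher, with a median log2 ratio of -2.35. Their sum went from 26163 CPM in control to 5238 CPM in ISO resident macrophages. H2-Aa, an alpha chain of the class II molecule, stood at 4134 CPM (4070 to 4199) in control cells and at 716 CPM (669 to 765) after ISO, 5.77-fold lower. H2-Eb1 was at 3956 CPM and 677 CPM, and H2-Ab1 at 4043 CPM and 724 CPM. Cd74, the invariant chain that escorts class II molecules, was at 13194 CPM and 2820 CPM. Ciita, the coactivator on which class II transcription depends, had 124 control and 6 ISO UMIs, or 32.2 CPM and 4.92 CPM. H2-DMa and H2-DMb1, which load peptides, were at 466 CPM and 150 CPM, and at 319 CPM and 133 CPM. The remaining gene, H2-DMb2, was at 19.0 CPM and 13.1 CPM. The class II sum was also lower after ISO in the other macrophages. It was 48927 CPM and 11473 CPM in the Ccr2-low set and 39646 CPM and 12105 CPM in the Ccr2 set. In the Arg1 set it was 29711 CPM and 6188 CPM. The median log2 ratio in the Ccr2 macrophages was -1.60, so lower class II RNA was not particular to resident macrophages.

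The promoters of H2-Aa and H2-Eb1 are shown because these genes moved together and share a regulatory element. They are the RefSeq sequences on GRCm38.p6, from 250 bases before to 50 bases after the gene start, read 5′ to 3′ on the gene's strand. Capitals mark the Y box, searched as CTGATTGG or its reverse complement CCAATCAG. H2-Aa lies on the minus strand (chr17:34287774-34288073) and H2-Eb1 on the plus strand (chr17:34305617-34305916), both in the class II region of chromosome 17.
H2-Aa: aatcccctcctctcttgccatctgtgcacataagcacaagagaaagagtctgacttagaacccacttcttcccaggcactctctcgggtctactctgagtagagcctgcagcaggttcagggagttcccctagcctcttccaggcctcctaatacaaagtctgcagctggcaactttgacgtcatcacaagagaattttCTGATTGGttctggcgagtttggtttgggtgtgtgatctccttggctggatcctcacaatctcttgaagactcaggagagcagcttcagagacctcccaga
H2-Eb1: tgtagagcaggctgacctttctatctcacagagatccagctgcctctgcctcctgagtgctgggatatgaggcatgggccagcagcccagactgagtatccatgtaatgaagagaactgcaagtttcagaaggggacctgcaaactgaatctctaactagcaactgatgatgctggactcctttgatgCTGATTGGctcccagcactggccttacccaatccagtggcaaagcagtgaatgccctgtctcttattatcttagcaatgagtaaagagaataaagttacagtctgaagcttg
The Y box starts 51 bases before the gene start in H2-Aa and 62 bases before it in H2-Eb1. Of 32851 mouse promoters of the same length, 4.10% held this motif. Promoters of 5 of the 8 class II genes were searched, and 2 of the 5 held the motif in these exact letters. The part of this motif in the lower levels was not tested. H2-Ab1, Cd74, and Ciita had no sequence shown.

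The H2-Aa RNA of ISO resident macrophages was mostly in few cells. In the ISO library 10 of 169 cells held 74.7% of the H2-Aa UMIs, against 10.5% in 10 of 493 control cells. At least 5 UMIs of H2-Aa were found in 326 control and 22 ISO cells. After thinning to 2000 UMIs, 73.3% (69.2 to 77.2) of control and 30.2% (23.4 to 37.7) of ISO resident macrophages had an H2-Aa UMI. The lymphocyte barcodes with few myeloid UMIs, which include class II-expressing B cells, had one in 61.4% and 41.1%, so the ISO resident macrophages were below that level. The lower class II sum was found at each number of resident UMIs. In cells with 3 to 5 resident UMIs, the class II sum was 35555 CPM (control) and 9518 CPM (ISO). It was 32478 CPM and 4419 CPM with 6 to 14 resident UMIs, and 17256 CPM and 3341 CPM with 15 or more. With a Timd4 UMI it was 23904 CPM and 5329 CPM, and without one 28873 CPM and 5194 CPM. In both libraries, cells with more resident UMIs thus had less class II RNA, and ISO cells were lower than control cells in each of these groups.

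**Figure D4:**
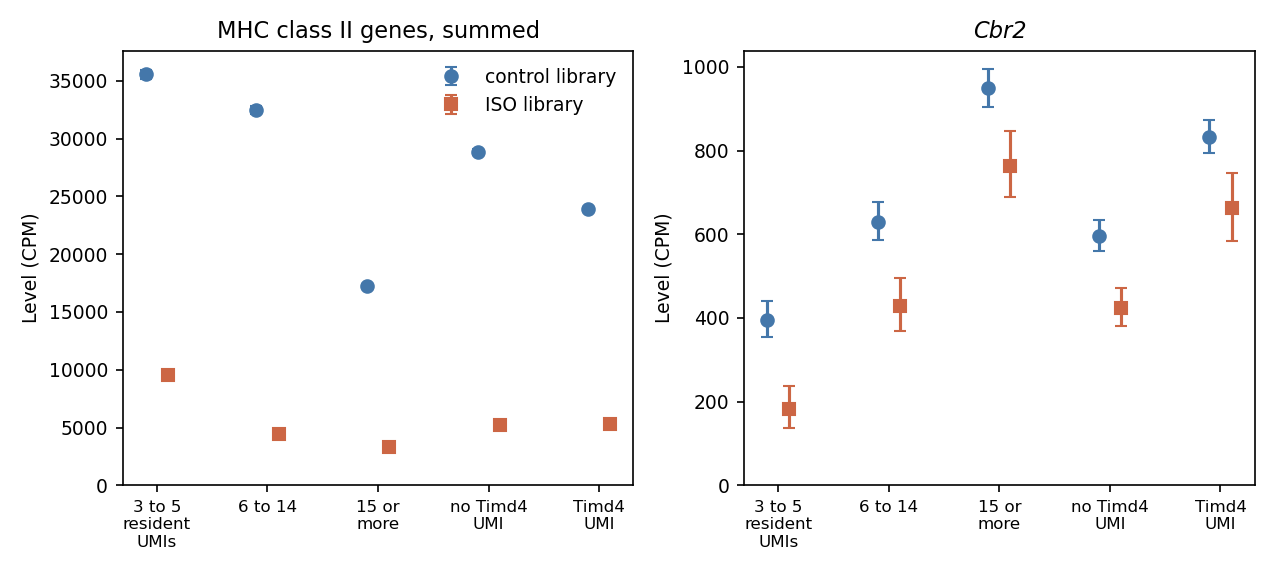
Summed MHC class II genes (left) and Cbr2 (right) in CPM with exact 95% Poisson intervals, in control (blue circles) and ISO (orange squares) resident macrophages split by their number of resident UMIs or by the presence of a Timd4 UMI. Class II levels fall with more resident UMIs, from 35555 CPM to 17256 CPM in the control, whereas Cbr2 rises, and ISO points lie below control points throughout.

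The other genes named as lower after ISO included receptors, enzymes, and transcription factors. Retnla, a secreted marker of alternative activation, was at 155 CPM in control and 7.37 CPM in ISO resident macrophages, 19.9-fold lower. It was present in 48 control cells, of which 10 held 73.8% of the UMIs, and in 2 ISO cells. Cx3cr1, the fractalkine receptor, was at 447 CPM (426 to 468) and 108 CPM (90.5 to 128), 4.11-fold lower, and after thinning had a UMI in 43.0% of control and 16.0% of ISO cells, against 3.54% and 1.11% of the lymphocyte barcodes with few myeloid UMIs. The gene lies on the minus strand at chr9:119901616-120069879 (GRCm38). Mgl2, a galactose-type lectin, was at 767 CPM and 235 CPM (3.26-fold). Ephx1, a microsomal epoxide hydrolase, was at 107 CPM and 13.1 CPM (7.93-fold). Etv3, an ETS-family repressor, was at 290 CPM and 63.9 CPM (4.52-fold).

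Abca1, which exports cholesterol, was at 220 CPM in control and 74.6 CPM in ISO cells (2.93-fold lower). Mmp13, a collagenase, was at 115 CPM and 30.3 CPM, Tmcc3 at 105 CPM and 28.7 CPM, and G530011O06Rik at 169 CPM and 45.1 CPM. These completed the 12 genes with the largest ratios downward. All 12 had intervals of the log2 ratio that ended below -1. By level alone, 85 genes were 2-fold lower, of which 30 were at least 2-fold above the lymphocyte and neutrophil barcodes of the control.

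Of 20 genes known to mark resident macrophages, outside the rule, 0 were 2-fold higher and 3 were 2-fold lower, with a median log2 ratio of -0.42, or 1.01 with lymphocyte UMIs subtracted. Their sum was 15423 CPM in control and 14265 CPM in ISO resident macrophages. The 3 lower genes were Sepp1, a selenium carrier, at 3161 CPM and 1255 CPM, Fcrls, an Fc receptor-like protein, at 493 CPM and 188 CPM, and Cd209f, a lectin counted by 37 UMIs and 1 UMI. Igf1, a growth factor, was at 311 CPM and 161 CPM, and Mrc1, the mannose receptor, was at 1264 CPM and 889 CPM. In the Ccr2 macrophages the same list had a median log2 ratio of -0.99. Over all genes 6.98% were 2-fold higher and 7.54% lower in resident macrophages, the background for this list and those below.

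**Figure D5:**
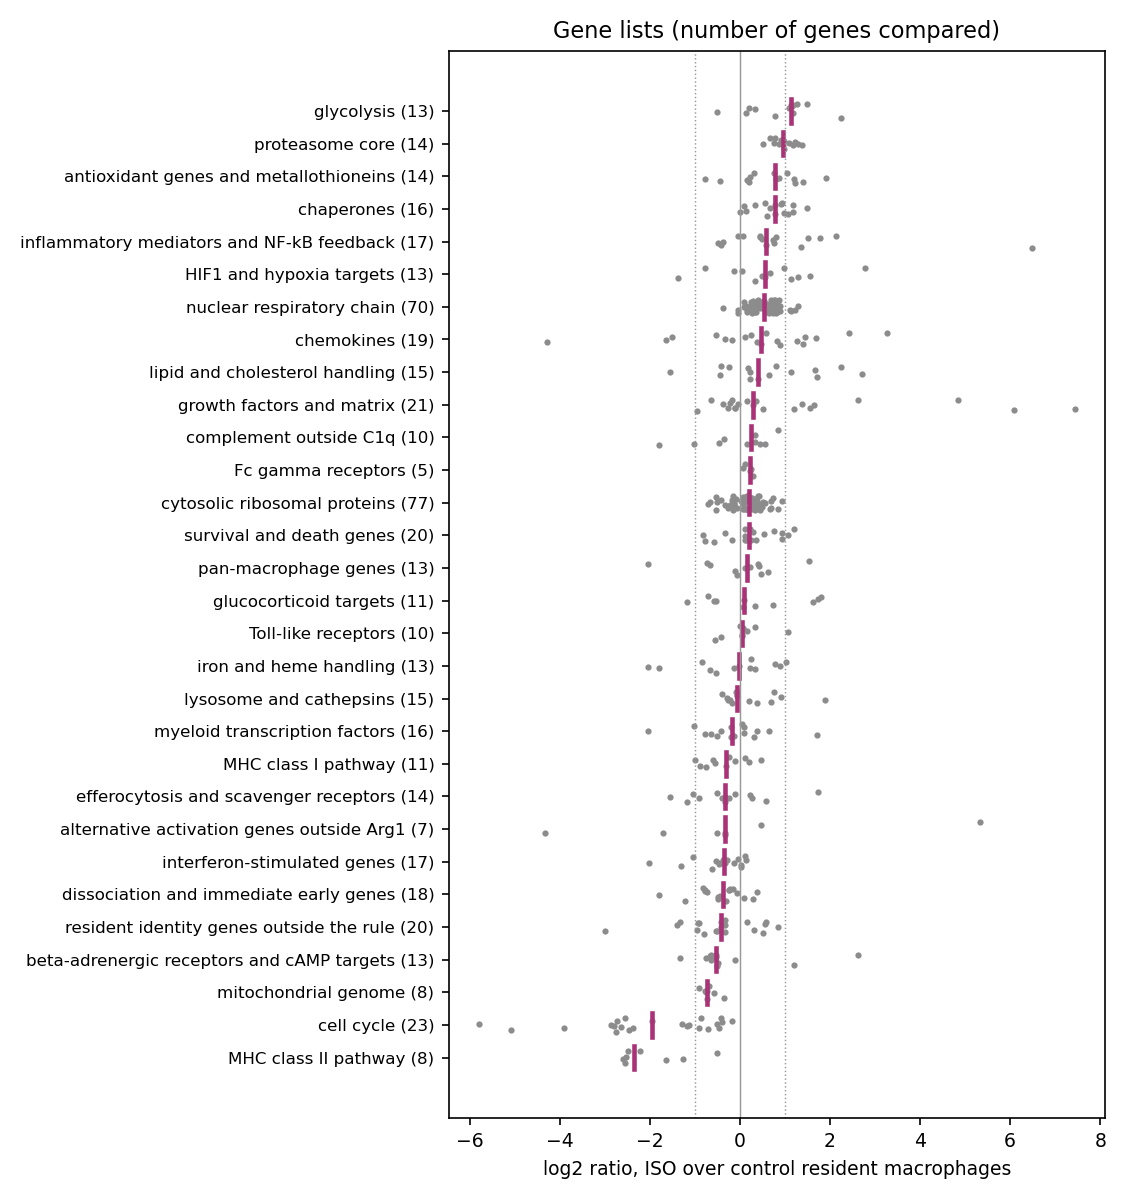
log2 ratio of ISO over control resident macrophages (horizontal axis) for each gene of the 30 pathway lists (rows, with the number of genes compared), 1 gray point per gene, with the median of each list as a vertical bar and dotted lines at 2-fold. MHC class II lies lowest, with a median of -2.35, followed by the cell cycle, and glycolysis lies at the top with 1.13. With lymphocyte UMIs subtracted, a step that was heavier in the ISO library, 18 of 33 list medians, other cell types included, had the opposite sign.

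Among receptors for the uptake of dying cells, the scavenger receptor Msr1 was 2-fold higher, at 126 CPM in control and 420 CPM in ISO cells. Axl, a receptor for Gas6, was at 148 CPM and 65.6 CPM, and Mfge8, which bridges dying cells to integrins, was at 35.9 CPM and 17.2 CPM. With Abca1, 3 of the 14 genes of this list were 2-fold lower and 1 was higher, beside 7.54% and 6.98% of all genes. The median log2 ratio was -0.33. Mertk, the other main receptor of this kind, was at 91.5 CPM and 84.4 CPM.

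Among iron and heme genes Hmox1 was higher, and Slc40a1 (ferroportin), the iron exporter, was at 84.2 CPM in control and 23.8 CPM in ISO cells, and Spic, a transcription factor of iron-recycling macrophages, had 96 UMIs and 7 UMIs. Fth1, the ferritin heavy chain, was at 7271 CPM and 12537 CPM, short of 2-fold. Over the 13 genes, 1 was higher and 2 were lower, beside 6.98% and 7.54% of all genes, with a median log2 ratio of -0.01.

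In the antioxidant list 5 of 14 genes were 2-fold higher and 0 were lower, with a median log2 ratio of 0.79, or -2.78 with lymphocyte UMIs subtracted. The 5 genes were Slc7a11, the cystine importer (22.1 CPM and 82.8 CPM), the peroxiredoxin Prdx5 (208 CPM and 551 CPM), Mt2, the superoxide dismutase Sod2 (146 CPM and 334 CPM), and the thioredoxin Txn1 (319 CPM and 656 CPM). The neighbouring metallothionein Mt1 was at 1121 CPM in control and 1309 CPM in ISO cells, a log2 ratio of 0.22 against 1.23 for Mt2. The promoters of both are shown, and their part in this difference was not tested. They are from RefSeq on the plus strand of GRCm38.p6, as chr8:94178839-94179138 for Mt1 and chr8:94172368-94172667 for Mt2. Capitals mark matches to the metal response element, searched as TGCACNC and TGCGCNC and as their reverse complements GNGTGCA and GNGCGCA.
Mt1: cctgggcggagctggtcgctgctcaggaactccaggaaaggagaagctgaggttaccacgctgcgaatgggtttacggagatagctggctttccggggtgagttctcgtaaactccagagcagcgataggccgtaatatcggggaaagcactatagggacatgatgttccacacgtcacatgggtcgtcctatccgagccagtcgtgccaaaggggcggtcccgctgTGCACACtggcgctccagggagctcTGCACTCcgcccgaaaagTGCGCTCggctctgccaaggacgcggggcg
Mt2: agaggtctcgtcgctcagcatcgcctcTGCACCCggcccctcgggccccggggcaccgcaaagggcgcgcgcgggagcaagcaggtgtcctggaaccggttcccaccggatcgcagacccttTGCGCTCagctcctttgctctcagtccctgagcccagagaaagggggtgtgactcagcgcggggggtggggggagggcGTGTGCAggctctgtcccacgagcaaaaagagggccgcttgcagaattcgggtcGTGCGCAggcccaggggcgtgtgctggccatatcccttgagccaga
Mt1 had 3 matches and Mt2 had 4. In the gene annotation Mt1 starts at chr8:94179082 and Mt2 at chr8:94172664, near the end of its window. The windows may therefore cover unlike parts of the 2 promoters. Of all 32851 promoters 25.7% had at least 1 match and 1.97% had 3 or more.

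Chemokines moved in both directions. Of 19 genes 6 were 2-fold higher and 3 were 2-fold lower, and the median log2 ratio was 0.47, or -2.73 with lymphocyte UMIs subtracted. Ccl2, the main ligand of Ccr2, was at 1045 CPM in control and 2870 CPM in ISO resident macrophages, with a UMI after thinning in 46.1% and 57.4% of cells, against 1.93% and 13.3% of the lymphocyte barcodes with few myeloid UMIs. The intervals of the Ccl2 shares in resident macrophages, 41.6% to 50.6% (control) and 49.6% to 65.0% (ISO), overlap. In the ISO library 10 of 169 cells held 48.0% of the Ccl2 UMIs, with 312 UMIs in 1 cell. In the control 10 of 493 held 24.5%. Ccl6 was at 916 CPM and 2953 CPM and Ccl9 at 659 CPM and 1743 CPM. Cxcl14 had 44 UMIs and 75 UMIs. Ccl5, at 194 CPM and 62.3 CPM, was concentrated in 10 control cells that held 92.8% of its UMIs. Cxcl13, which attracts B cells, had 92 UMIs in 4 control cells and 1 UMI after ISO, and Ccl8 had 85 UMIs and 9 UMIs.

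In the list of inflammatory mediators 5 of 17 genes were 2-fold higher and 0 were lower, with a median log2 ratio of 0.58, or -5.81 with lymphocyte UMIs subtracted. Besides Saa3 these were Csf1, a growth factor of macrophages (11.7 CPM and 51.6 CPM), Il1rn, the interleukin 1 receptor antagonist (80.8 CPM and 279 CPM), Il1a (84.5 CPM and 240 CPM), and the cyclooxygenase Ptgs2 (99.8 CPM and 255 CPM). Among interferon-stimulated genes 3 of 17 were lower and 0 were higher, beside 7.54% and 6.98% of all genes, and the median was -0.36. Ifit3 had 108 UMIs and 8 UMIs, and Isg15 was at 157 CPM and 102 CPM.

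Of 13 glycolysis genes 8 were 2-fold higher and 0 were lower, with a median of 1.13. Pkm, pyruvate kinase, was at 219 CPM in control and 1036 CPM in ISO cells, Aldoa, an aldolase, at 235 CPM and 536 CPM, Ldha, lactate dehydrogenase, at 170 CPM and 382 CPM, and the lactate exporter Slc16a3 at 50.7 CPM and 114 CPM. The median of the same genes in the Ccr2 macrophages was 1.57. The summed glycolysis list was at 3087 CPM in ISO resident macrophages. It was at 4588 CPM in ISO lymphocyte barcodes and at 1760 CPM in those with few myeloid UMIs. In the proteasome core 5 of 14 genes were higher and 0 were lower (median 0.96), with Psmb3 at 127 CPM and 330 CPM. Of 16 chaperones 4 were higher and 0 lower (median 0.77), with the chaperonin subunit Cct3 at 90.9 CPM and 256 CPM. The 70 nuclear genes of the respiratory chain had a median of 0.54, with 4 higher and 0 lower. The 8 genes of the mitochondrial genome had a median of -0.73, with 0 past 2-fold. In the Ccr2 macrophages the medians were 0.91 for the proteasome core and 0.75 for chaperones. They were 0.48 for the nuclear respiratory chain and -0.63 for the mitochondrial genome, so these differences were not particular to resident macrophages. When the UMIs of lymphocyte barcodes were subtracted, the medians were -5.09 for glycolysis, -4.58 for the proteasome, -4.56 for chaperones, and -4.57 for the nuclear respiratory chain, and the ISO lymphocyte barcodes used there also held myeloid transcripts. With lymphocyte barcodes of few myeloid UMIs in their place, the first 3 were 1.29, 1.80, and 1.58.

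Genes of cell division were lower in ISO resident macrophages. At least 5 UMIs over 10 genes of division, among them Mki67 and Top2a, were found in 18 of 493 control cells (3.65%, 2.18 to 5.71) and in 1 of 169 ISO cells (0.592%, 0.0150 to 3.25), and these intervals overlap. In the cell cycle list 15 of 23 genes were 2-fold lower and 0 were higher, with a median log2 ratio of -1.96, or -1.28 with genes at 0 set to the 3 UMIs that a count of 0 allows. It was -0.78, short of 2-fold, in cells thinned to 2000 UMIs before summing and -0.85 with the limits applied to cells thinned to 4000 UMIs. The summed list was at 644 CPM and 275 CPM. Birc5, a survival protein of dividing cells, had 87 UMIs and 0 UMIs, and Top2a had 95 UMIs and 4 UMIs. In the control, 5 cells held 301 of the 656 UMIs of the 10 genes, so the level rests on few cells. In the Ccr2 macrophages the share was 5.13% in the control and 1.55% in the ISO library.

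Of lipid genes, Lgals3, a galectin (244 CPM and 1166 CPM), the lipid droplet protein Plin2 (237 CPM and 753 CPM), and the fatty acid binding protein Fabp4 (42.9 CPM and 93.4 CPM) were 2-fold higher, with 5 of 15 genes higher and 1 lower (median 0.41). Apoe, the most abundant of them, was at 16461 CPM and 12081 CPM. Itgam (CD11b), an integrin of myeloid cells, was at 238 CPM and 689 CPM, whereas Csf1r, the receptor for Csf1, was at 1186 CPM and 714 CPM. Of the 13 pan-macrophage genes, 1 was higher and 1 was lower (Cx3cr1), near the 6.98% and 7.54% of all genes. The median was 0.16 (-0.0039 with scaling by the median ratio).

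Ratios in resident and in Ccr2 macrophages were set side by side for 1631 genes that reached 100 CPM and 50 UMIs in both sets. The difference was not tested. The genes with the largest excess in resident macrophages were Ctla2a (log2 ratio 4.06 against -0.38), Ets1 (-0.57 against -2.93), Lmo4 (0.84 against -1.40), Mt2 (1.23 against -1.02), and Pmp22 (-0.16 against -2.21). Pmp22, a tetraspan membrane protein, was at 349 CPM in control and 312 CPM in ISO resident macrophages. Ets1, a transcription factor of lymphocytes, was present after thinning in 87.7% of control and 70.0% of ISO lymphocyte barcodes with few myeloid UMIs. In resident macrophages the shares were 12.6% and 8.88%. Lmo4 was present in 15.5% and 24.3% of resident macrophages, against 21.0% and 25.6% of those lymphocyte barcodes. In the other direction were Saa3, Cxcl3, and Spp1, with Lpl, a lipoprotein lipase (-0.41 against 1.42), and Clec7a, the beta-glucan receptor dectin 1 (-1.10 against 0.73). Clec7a was at 216 CPM and 101 CPM in resident macrophages.

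Transcripts of other cell types were present at low levels. Over 7 monocyte genes the sum was 139 CPM in control and 390 CPM in ISO resident macrophages, with a UMI of any in 24.1% and 42.6% of cells, and 3 of the 6 genes compared were higher. Ly6c2 was at 5.46 CPM and 36.1 CPM, and Vcan at 1.82 CPM and 23.8 CPM. The 7 B cell genes outside the rule summed to 363 CPM and 193 CPM, the 9 T cell genes to 28.8 CPM and 67.2 CPM, the 9 NK cell genes to 145 CPM and 118 CPM, and the 8 neutrophil genes to 238 CPM and 353 CPM, with Ly6g and Camp at 0 in both libraries. The dendritic cell list was at 147 CPM and 105 CPM, the fibroblast list at 272 CPM and 346 CPM, the endothelial list at 72.0 CPM and 122 CPM, and the cardiomyocyte list at 221 CPM and 199 CPM. The platelet list was at 20.8 CPM and 70.5 CPM, and the erythrocyte list at 2.60 CPM and 0. The part of these transcripts in the ratios was not tested. Without the cells that held a UMI of Ly6c2, Chi3l3, Vcan, or Ccr2, 434 control and 114 ISO cells remained, and the share of kept cells had a log2 ratio of -1.88.

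At the limit of 3 resident UMIs, cells just inside and just outside had the following values. The 53 control and 10 ISO cells with exactly 3 resident UMIs had a class II sum of 32648 CPM and 13017 CPM, and Cbr2 at 415 CPM and 53.1 CPM. The 56 control and 22 ISO Ccr2-low cells with exactly 2 had a class II sum of 44422 CPM and 11183 CPM, and Cbr2 at 324 CPM and 165 CPM. Spp1 was at 14.1 CPM and 810 CPM just inside and at 0 and 1745 CPM just outside. These are counts of few cells, and in the ISO library the values just inside rest on 10 cells.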

How the data were processed

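CD45+ heart cells were profiled in 1 control and 1 ISO library. The authors used UMI-tools 1.0.0 for cell barcodes and UMIs, aligned reads to mm10 with STAR 2.7.3a, and counted with featureCounts 1.6.4, as the submitters' processing notes list. The deposited values are raw UMI counts per gene and barcode, without normalization, for 5927 control and 5514 ISO barcodes. The annotation release they used is not given in the sources used here.

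The rule for resident macrophages and the gene lists were chosen with earlier results of these data known. UMIs were summed over resident macrophages per library, 0.5 UMI was added, and the ratio of CPM was taken on the log2 scale for genes with at least 20 UMIs, leaving out the genes of the rule. Called means at least 2-fold. Sums have exact Poisson intervals and shares exact Clopper-Pearson intervals. With 1 library per group, no test was made. Named genes were the markers, the 12 largest ratios each way (100 CPM, 50 UMIs, and 2-fold above lymphocyte and neutrophil barcodes required in whichever library was higher), the 10 genes highest over the other macrophages, up to 5 genes per list, and 5 each way that differed most from Ccr2 macrophages. A few further genes were named after their values were seen, such as Gm26924, Mertk, and Itgam.

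Lymphocyte and neutrophil barcodes had at most 2 C1q UMIs. In the ISO library they held many myeloid transcripts, so lymphocyte barcodes with at most 5 UMIs of Lyz2, Csf1r, and Cd14 (1645 control and 90 ISO) were set apart after seeing the data. Their median depth was 3770 and 3658 UMIs. For shares of cells with a UMI called thinned, cells were thinned to 2000 UMIs, which left out 9 control and 0 ISO resident macrophages and 37 control and 0 ISO lymphocyte barcodes. Doublets were not removed, except in an alternative that left out the 5% highest Scrublet scores. The ratio step was tested on simulated counts of 10090 genes, where all 200 genes changed 4-fold were found past 2-fold. Those 200 had at least 50 expected ISO UMIs and counting error only, so rarer genes and uneven cells were not covered. Of the unchanged genes 2.63% passed 2-fold. Some genes are not reported here. Gene names are those of the files, and promoters are from RefSeq. Python 3.11.15, numpy 2.4.6, scipy 1.17.1, pandas 2.3.3, scanpy 1.11.5, and matplotlib 3.10.9 were used.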

Additional observations from a re-analysis of the deposited data

Results flagged for a closer look

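Mt2, a metallothionein, had a log2 ratio of 1.23 (ISO over control) in resident macrophages and of -1.02 in Ccr2 macrophages. It was flagged because both ratios passed 2-fold in opposite directions, the only such case among 1631 genes, and the difference was not tested, as there is 1 library per group. A Mt2 UMI was present in 28.6% of control and 58.0% of ISO resident macrophages, and 10 ISO cells held 37.9% of the UMIs. Over the 28 alternatives its ratio in resident macrophages stayed between 1.06 and 3.08.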

How the results depend on the processing

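No paired analysis was possible because each group is 1 library. For the same reason no library could be left out in turn. There were 23 alternative settings and 5 more added after seeing the data. In the 17 that give a share, resident macrophages were a smaller share after ISO of both kept cells and C1q barcodes. The log2 ratio of the share of kept cells was -1.49, or -2.26 with limits on cells thinned to 4000 UMIs and -1.88 without cells with monocyte UMIs. That of the share of C1q barcodes was -1.78, or -1.22 and -2.17. The 703 higher genes became 1073 with lymphocyte UMIs subtracted, 1528 with those of lymphocyte barcodes with few myeloid UMIs, 453 with at least 50 UMIs, and 2284 with no minimum. The 760 lower genes became 3272 with lymphocyte UMIs subtracted, 502 after thinning to 2000 UMIs, 444 with at least 50 UMIs, and 1931 with no minimum. Fewer genes were compared with either subtraction, after thinning, and with at least 50 UMIs, and more with no minimum. The 10 genes above the other macrophages stayed 2-fold higher in all 18 alternatives that apply. They were chosen by this ratio in much the same cells, so this is no independent check.

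Subtracting lymphocyte UMIs took a whole mean lymphocyte barcode per cell, with median depths of 3809 UMIs (control) and 7987 UMIs (ISO). The latter is above the median of 6365 UMIs of ISO resident macrophages, so this is an extreme setting. The part of this in the turned signs was not tested. It turned the sign of 27 of 75 values, 18 of 33 list medians and 9 of 42 genes. Among those past 2-fold were Cxcl3 (-3.02), Igfbp4 (0.16), and the glycolysis median (-5.09). Others were the medians of HIF1 targets (-4.92), survival genes (-4.74), ribosomal proteins (-4.52), Fc gamma receptors (-1.50), and lipid genes (-0.90), and Fxyd2 (1.64), Ltc4s (1.42), Stard8 (1.27), Pmp22 (1.67), and Csf1r (0.32). With lymphocyte barcodes of few myeloid UMIs, 2 of 78 values turned, the medians of ribosomal proteins (-1.20) and of iron genes (0.03). The T cell median was -1.14 with the thinned limits, and the monocyte median was -0.44 without cells with monocyte UMIs, which removes those genes by construction. Other causes were not tested. Of 27 named genes past 2-fold, 25 kept their sign throughout and 16 stayed past 2-fold. Rare transcripts in 169 ISO cells are limited by depth: a gene with 0 UMIs can stand at up to 3 UMIs, and neither batch nor mouse can be told apart from treatment.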

Other observations

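Receptors that sense antibodies and microbes stood close to even in resident macrophages. The counts below stand beside 6.98% higher and 7.54% lower over all genes. Of the 5 Fc gamma receptor genes 0 passed 2-fold (median log2 ratio 0.24), with Fcgr3 at 720 CPM in control and 755 CPM in ISO cells. Among 10 Toll-like receptor genes 1 was higher, Tlr13 at 28.3 CPM and 59.0 CPM, and the median of 0.06 was -0.11 with scaling by the median ratio. Cd14, a coreceptor for lipopolysaccharide, was at 2110 CPM and 2360 CPM. Of 10 complement genes outside C1q, 0 were higher and 2 were lower (median 0.25). In MHC class I, 0 of 11 genes passed 2-fold (median -0.31), with B2m at 2394 CPM and 1289 CPM, in contrast to class II. Of 77 cytosolic ribosomal protein genes 0 passed 2-fold (median 0.21), and 1 of 15 lysosomal genes did, the cathepsin Ctsl, at 207 CPM and 770 CPM.

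Shares of 6.98% higher and 7.54% lower over all genes stand as the background for the lists that follow. Among 13 genes of beta-adrenergic and cAMP signaling, 2 were higher, Thbs1 and Areg, and 1 was lower, Nr4a2 (median -0.54). In the glucocorticoid list 3 of 11 genes were higher and 1 was lower (median 0.09, or -0.08 with that scaling), with Il1r2, the decoy interleukin 1 receptor, at 33.3 CPM and 103 CPM beside Fkbp5. Immediate early genes had a median of -0.37, with Fosb at 531 CPM and 153 CPM and Hspa1b at 1440 CPM and 618 CPM as the 2 of 18 genes past 2-fold. In the growth factor and matrix list 8 of 21 genes were higher (median 0.30), among them Thbs1 at 48.3 CPM and 296 CPM and Areg at 92.0 CPM and 213 CPM. Of 13 HIF1 targets 4 were higher and 1 lower (median 0.56, or -4.92 with lymphocyte UMIs subtracted), with Hilpda at 32.0 CPM and 220 CPM. Of 7 alternative activation genes 1 was higher, Chi3l3, and 2 were lower, Retnla and Mgl2 (median -0.33). Of 16 myeloid transcription factors 1 was higher and 2 were lower (median -0.16), with Rel at 295 CPM and 145 CPM. Of 20 survival and death genes 2 were higher (median 0.21), with Bax at 178 CPM and 374 CPM.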
